A study of Rattus norvegicus with 10 samples.

Results

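The VEGF and angiopoietin system was described in rat left ventricle after gene transfer of the cardiac transcription factor GATA-4, as 10 genes taken from 14217 genes named on the array. The ligands were Vegfa, Vegfb, Vegfc, Pgf, Angpt1 and Angpt2, and the receptors were Flt1, Kdr, Tek and the co-receptor Nrp1. A probe set, a group of short probes read together as 1 value, belonged to a member where the array annotation named that gene alone. This gave 16 of 31042 probe sets, with 5 members read by 1 probe set and 5 by 2 or more.

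All rats were male Sprague-Dawley animals of 250 to 300 g. The 5 GATA-4 samples were taken 3 days after transfer of the GATA-4 gene. The 5 LacZ samples were taken at the same time after transfer of LacZ, a bacterial gene with no role in the heart that serves as the control, so both groups had undergone gene transfer. The vector, the injection site and the cells that took up the gene are not described in the labels, and no group without transfer was analysed here. The samples are pieces of whole ventricle, in which fewer cells of a type and less RNA per cell cannot be told apart. The labels do not state whether each sample came from its own animal, so p-values measure the spread between these samples, which may be technical.

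VEGF ligands are secreted growth factors that act on endothelial cells, the cells that line vessels, through receptor tyrosine kinases. VEGF-A acts mainly through Kdr to drive sprouting and permeability, whereas Flt1 binds VEGF-A, VEGF-B and PlGF, the product of Pgf, and in large part traps VEGF-A. Angpt1 activates the receptor Tek (Tie2) and keeps vessels stable, and Angpt2, made by endothelial cells, often opposes it. In the heart, muscle cells are a main source of VEGF-A and VEGF-B, and low oxygen raises Vegfa through hypoxia-inducible factors.

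Of the members, Vegfa alone passed the test, on the brighter of its 2 probe sets, where it was 1.29-fold lower with GATA-4. A difference throughout is GATA-4 minus LacZ in log2 normalized signal. Among 14 member probe sets tested, 1 was called at an adjusted p under 0.05 in limma, beside 5.30% of all 18625 probe sets tested, so the share among the members was near that of the array. Pgf had the largest difference, 0.65 higher with GATA-4, but missed the threshold. The 14 tested probe sets covered 9 members, since the only probe set of Angpt1 and 1 of the 2 of Kdr lay under the filter on low signal. Differences were above 0 for 8 of the 14 (57.1%), with a median of 0.05, beside 46.2% and a median of -0.03 over all probe sets tested.

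Signal for Gata4 was read first, and whether it came from the transferred copy or the rat's own gene was not tested. Gata4 was at 10.65 ± 0.13 (SD, n = 5) with LacZ and 11.44 ± 0.14 (SD, n = 5) with GATA-4 on 1387894_at, 1.73-fold higher (limma adjusted p = 0.00131), and its dim second probe set was not tested. The 2%-trimmed mean signal before normalization was 249 to 314 on the LacZ arrays and 249 to 329 on 4 of the GATA-4 arrays. GATA-4 array 1 stood apart at 142, and the results that changed most without it are given both ways. Without it, 2849 probe sets passed the threshold (15.3% of those tested) in place of 988. The number of arrays limits the precision of every value.

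**Figure D1:**
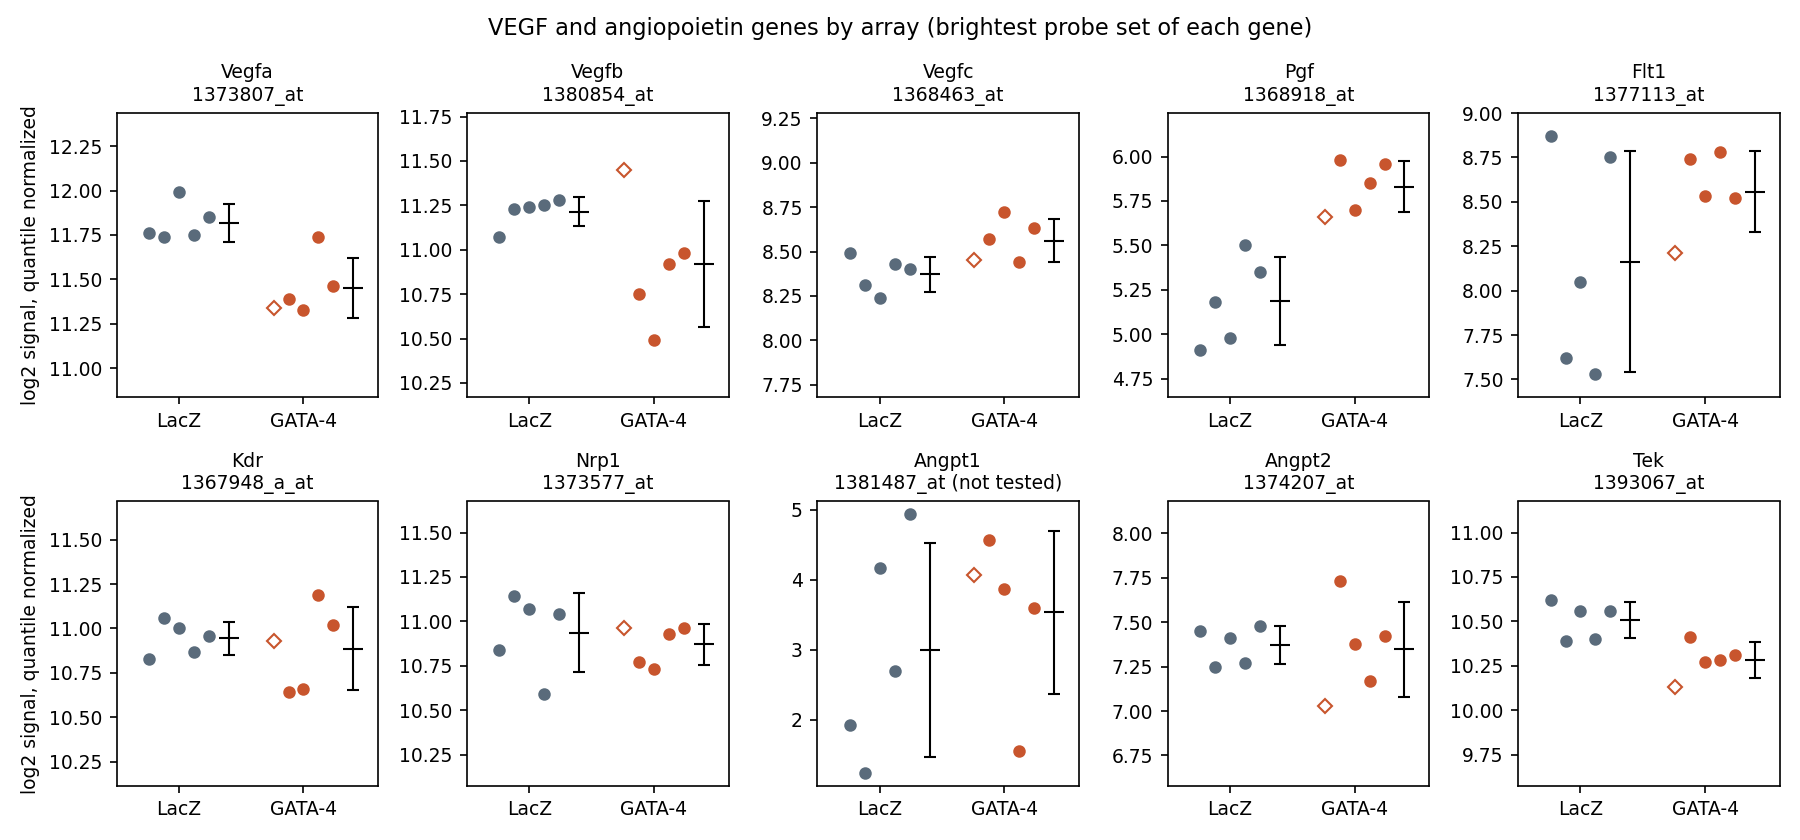
Log2 normalized signal (y axis) of the brightest probe set of each member on the 5 LacZ and 5 GATA-4 arrays, each point 1 array, with bars at the mean ± SD and an open diamond for GATA-4 array 1. On Pgf 1368918_at the GATA-4 arrays lie at 5.66 to 5.98 and the LacZ arrays at 4.91 to 5.50, and on Vegfa 1373807_at only GATA-4 array 4 reaches the LacZ arrays.

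The stretch before the start site is shown for Vegfa, the called member, and for Pgf, the member of largest tested difference. The sequences come from RefSeq on build GRCr8, are written 5′ to 3′ in the direction of the gene and cover the 250 bases before the start. Capitals in Vegfa mark AGATAA, a form of the GATA motif, and in Pgf they mark the reverse complement of GCGTG, a hypoxia response core.
Vegfa, chr9:22452604-22452853, plus strand: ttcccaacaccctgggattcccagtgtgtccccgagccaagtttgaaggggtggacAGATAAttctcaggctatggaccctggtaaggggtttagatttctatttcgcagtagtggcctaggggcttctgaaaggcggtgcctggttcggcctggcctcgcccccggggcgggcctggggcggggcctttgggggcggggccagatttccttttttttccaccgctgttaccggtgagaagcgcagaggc
Pgf, chr6:110557748-110557997, minus strand: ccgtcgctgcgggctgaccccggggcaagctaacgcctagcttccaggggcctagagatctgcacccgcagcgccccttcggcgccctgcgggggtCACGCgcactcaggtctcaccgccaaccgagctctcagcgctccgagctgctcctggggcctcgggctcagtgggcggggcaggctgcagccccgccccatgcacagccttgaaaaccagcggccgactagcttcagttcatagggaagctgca
Windows from 250 bases before to 50 after the start were listed for 7 members, with 8 windows because Vegfa had 2, and Angpt1, Angpt2 and Tek were not among them. The GATA motif was sought on both strands as AGATAA or TGATAA, and likewise as AGATAG or TGATAG, and was in 1 of the 8 windows and in 30.3% of 33469 windows of the table. The match lay at position -194 from the start of Vegfa. The hypoxia cores ACGTG and GCGTG, sought on both strands, were in 5 of the 8 windows, those of Vegfb, Pgf, Flt1, Kdr and Nrp1, and in 41.6% of all windows. None of the 8 windows held a match of both kinds. A match is a run of letters and not a bound site.

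Vegfa encodes the central ligand of the family. On 1373807_at the LacZ arrays 1 to 5 read 11.76, 11.74, 11.99, 11.75 and 11.85, and the GATA-4 arrays 1 to 5 read 11.34, 11.39, 11.33, 11.74 and 11.46. The groups overlapped only through GATA-4 array 4, which equalled the lowest LacZ array, while the other GATA-4 arrays lay below every LacZ array. The level fell from 11.82 ± 0.11 to 11.45 ± 0.17 (SD, n = 5 each), a difference of -0.37 (SE 0.085, 95% interval -0.55 to -0.18, limma adjusted p = 0.0292). Probe sets that passed the test as lower with GATA-4 made up 2.27% of those tested. The call was lost in 7 of the 10 fits that left out 1 array, those without LacZ array 1, 3, 4 or 5 or GATA-4 array 2, 3 or 5 (limma adjusted p = 0.0532 to 0.0940). The difference was -0.44 to -0.32 over all 10 of these fits. It was -0.33 without the dim GATA-4 array 1 (limma adjusted p = 0.0173).

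The other Vegfa probe set did not share this difference. On 1370081_a_at the LacZ arrays read 8.11, 8.00, 8.18, 8.35 and 8.23, and the GATA-4 arrays read 8.59, 7.88, 8.03, 8.37 and 8.33. The GATA-4 arrays spread across and beyond the LacZ range on both sides. The means were 8.17 ± 0.13 and 8.24 ± 0.28 (SD, n = 5 each), a difference of 0.07 (SE 0.14, 95% interval -0.23 to 0.37, limma adjusted p = 0.815). With the probe sets of a gene averaged, Vegfa differed by -0.15 and was not called (limma adjusted p = 0.401).

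The gap between the 2 Vegfa probe sets within an array, the log2 of 1373807_at minus that of 1370081_a_at, was compared after their values had been seen. It was 3.65, 3.74, 3.82, 3.40 and 3.62 on the LacZ arrays and 2.76, 3.51, 3.29, 3.37 and 3.13 on the GATA-4 arrays. The gap was smaller by 0.43 on average with GATA-4, although GATA-4 arrays 2 and 4 lay near or inside the LacZ range. An exact permutation test gave p = 0.0159, and 0.0476 after Benjamini-Hochberg adjustment over 3 pairs, those of genes with exactly 2 tested probe sets. Flt1, with 3 probe sets, was not compared, and the adjusted p depends on which pairs are counted. Since these same values prompted the comparison, its p is no support for a difference. Without GATA-4 array 1 the gap was 0.32 smaller. The pairs of Pgf and Nrp1 gave differences of 0.37 and -0.10, with adjusted exact p of 0.607 and 0.635. The probes of 1 gene can read different parts or forms of its transcript. The log2 ratio of 3′ to middle signal of the array's RNA control genes was 1.07 ± 0.14 with LacZ and 0.88 ± 0.10 with GATA-4 (SD, n = 5 each, exact permutation p = 0.0476), and its part in the gap was not tested. The 3′ to 5′ ratio was 1.08 ± 0.25 and 1.07 ± 0.17.

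**Figure D2:**
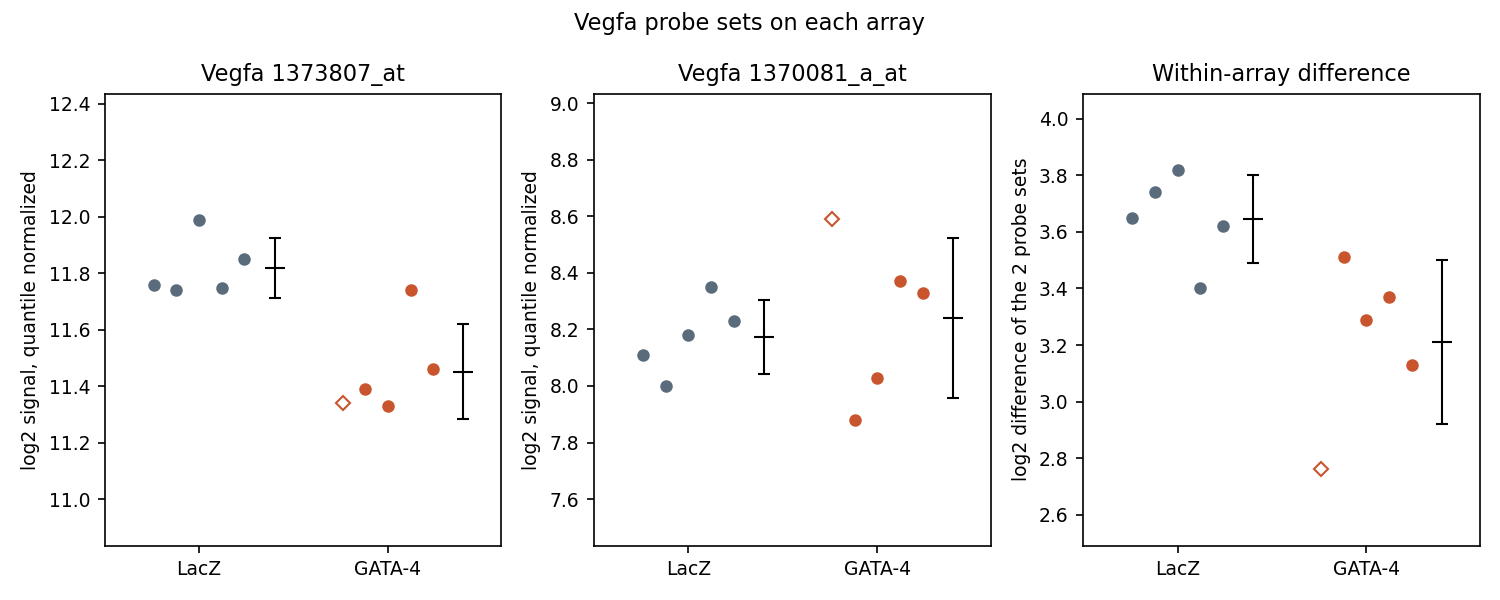
Log2 normalized signal of the 2 Vegfa probe sets and the gap between them on each of the 5 LacZ and 5 GATA-4 arrays, with bars at the mean ± SD and an open diamond for GATA-4 array 1. The brighter probe set goes from 11.82 to 11.45, the dimmer one from 8.17 to 8.24, and the gap from 3.65 to 3.21.

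Vegfb, a ligand of Flt1 and Nrp1 that the heart makes in quantity, turned on a single array. The LacZ arrays read 11.07, 11.23, 11.24, 11.25 and 11.28, and the GATA-4 arrays read 11.45, 10.75, 10.49, 10.92 and 10.98. GATA-4 array 1 was above all LacZ arrays, whereas the other 4 GATA-4 arrays were below all of them. With every array in, the difference was -0.30 (SE 0.14, 95% interval -0.60 to 0.0040) and was not called (limma adjusted p = 0.233). Without GATA-4 array 1 it was -0.43 (SE 0.092) and passed the threshold (limma adjusted p = 0.00933), and without GATA-4 array 3 it was -0.19.

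Pgf encodes placental growth factor, which binds Flt1 and not Kdr. On 1368918_at the LacZ arrays read 4.91, 5.18, 4.98, 5.50 and 5.35, and the GATA-4 arrays read 5.66, 5.98, 5.70, 5.85 and 5.96. After normalization each GATA-4 array exceeded each LacZ array. In signals as deposited, GATA-4 array 1 read 30.84, inside the LacZ range of 29.34 to 47.27. The means were 5.18 ± 0.25 and 5.83 ± 0.14 (SD, n = 5 each), a difference of 0.65 (SE 0.18, 95% interval 0.26 to 1.03), or 1.57-fold, with a limma adjusted p of 0.0552. Of the 14 member probe sets tested 1368918_at was the only one whose groups did not overlap after normalization. Over all probe sets tested the share was 8.30% for either direction and 3.70% with GATA-4 above. Without GATA-4 array 1 the difference was 0.70 and was called (limma adjusted p = 0.0255). The level lies close to the filter value of 5.17, below which signal was too low to test.

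The second Pgf probe set did not separate the groups. On 1368919_at the LacZ arrays read 5.48, 5.76, 5.21, 4.23 and 5.26, and the GATA-4 arrays read 4.30, 6.31, 5.48, 5.51 and 5.72. Each group had 1 array well under the rest, LacZ array 4 and GATA-4 array 1. The difference was 0.28 (SE 0.36, limma adjusted p = 0.700), and it was 0.039 without LacZ array 4, 0.065 without GATA-4 array 2, 0.42 without LacZ array 2 and 0.57 without GATA-4 array 1.

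Vegfc encodes a ligand best known for growth of lymphatic vessels. The LacZ arrays read 8.49, 8.31, 8.24, 8.43 and 8.40, and the GATA-4 arrays read 8.45, 8.57, 8.72, 8.44 and 8.63. The GATA-4 values lay mostly above, with overlap between 8.44 and 8.49. The difference of 0.19 (SE 0.099, 95% interval -0.03 to 0.40) missed the threshold (limma adjusted p = 0.284).

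The VEGF receptors gave no call. Kdr, the main signalling receptor for VEGF-A, read 10.83, 11.06, 11.00, 10.87 and 10.96 with LacZ and 10.93, 10.64, 10.66, 11.19 and 11.02 with GATA-4 on 1367948_a_at. GATA-4 arrays 2 and 3 were the lowest of the 10 and GATA-4 array 4 the highest. The difference was -0.06 (SE 0.11, 95% interval -0.28 to 0.17, limma adjusted p = 0.791). The other Kdr probe set, 1397868_at, was under the filter at 2.90 ± 1.54 and 3.46 ± 1.38 (SD, n = 5 each).

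Flt1 was read by 3 probe sets, all with a difference above 0 and none past the threshold. On the brightest, 1377113_at, the LacZ arrays read 8.87, 7.62, 8.05, 7.53 and 8.75, and the GATA-4 arrays read 8.21, 8.74, 8.53, 8.78 and 8.52. LacZ arrays 1 and 5 stood near or above the highest GATA-4 arrays and the other LacZ arrays below all of them, so the LacZ spread (SD 0.62) was wider than that with GATA-4 (SD 0.23). The difference was 0.39 (SE 0.25, 95% interval -0.14 to 0.93, limma adjusted p = 0.377). It was 0.24 without LacZ array 4, 0.26 without LacZ array 2 and 0.57 without LacZ array 1. The other probe sets, 1369087_at and 1370492_a_at, gave 0.16 (SE 0.30) and 0.13 (SE 0.23), with limma adjusted p of 0.790 and 0.781.

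Nrp1, the co-receptor that presents VEGF-A to Kdr and also binds semaphorins, was read by 2 probe sets. On 1373577_at the LacZ arrays read 10.84, 11.14, 11.07, 10.59 and 11.04, and the GATA-4 arrays read 10.96, 10.77, 10.73, 10.93 and 10.96. The GATA-4 arrays all fell inside the LacZ range, with a difference of -0.07 (SE 0.10, 95% interval -0.29 to 0.16, limma adjusted p = 0.752). On 1370570_at the LacZ arrays read 10.25 to 10.50 and the GATA-4 arrays 9.95 to 11.08, with GATA-4 array 1 the highest of the 10. The difference there was 0.03 (SE 0.17, limma adjusted p = 0.941), and its sign depended on that array, being -0.14 without it.

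Of the angiopoietin genes that could be tested, Tek had the larger difference. The LacZ arrays read 10.62, 10.39, 10.56, 10.40 and 10.56, and the GATA-4 arrays read 10.13, 10.41, 10.27, 10.28 and 10.31. The groups overlapped only through GATA-4 array 2, which lay just above LacZ arrays 2 and 4. The means were 10.51 ± 0.10 and 10.28 ± 0.10 (SD, n = 5 each), a difference of -0.23 (SE 0.081, 95% interval -0.40 to -0.05). It missed the threshold over all probe sets (limma adjusted p = 0.122), and no alternative tried brought it under.

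Of its ligands, Angpt2 showed no difference beyond its spread, and Angpt1 could not be tested. Angpt2, the antagonist that endothelial cells release when vessels remodel, read 7.45, 7.25, 7.41, 7.27 and 7.48 with LacZ and 7.03, 7.73, 7.38, 7.17 and 7.42 with GATA-4. The LacZ arrays lay inside the range of the GATA-4 arrays, with a difference of -0.03 (SE 0.14, 95% interval -0.32 to 0.27, limma adjusted p = 0.933). Angpt1, the activating ligand from cells around vessels, was under the filter and read 1.92, 1.24, 4.17, 2.70 and 4.93 with LacZ and 4.07, 4.57, 3.87, 1.55 and 3.60 with GATA-4. Such low values scatter over several log2 units in both groups and allow no statement on Angpt1.

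**Figure D3:**
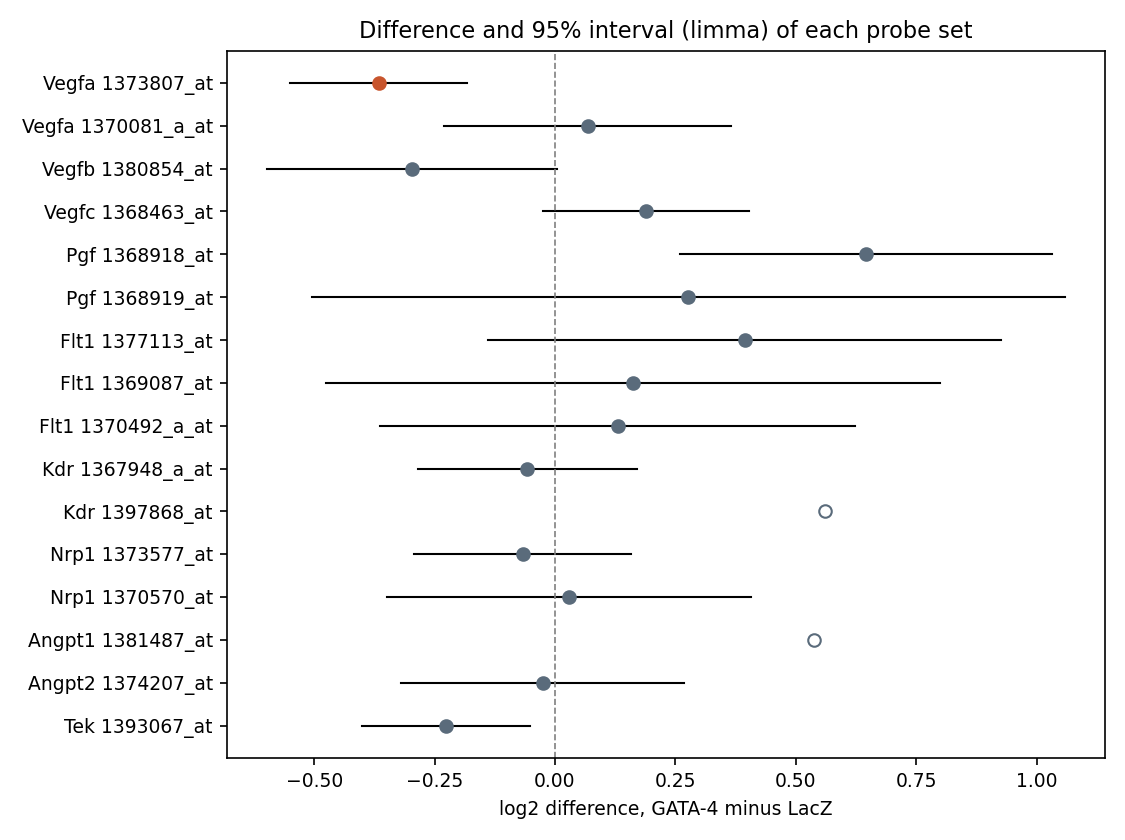
GATA-4 minus LacZ difference in log2 normalized signal (x axis) of each member probe set, with bars for the 95% interval, orange where the limma adjusted p is under 0.05 and open circles where the probe set was not tested. The interval of the called Vegfa probe set runs from -0.55 to -0.18 and that of Pgf 1368918_at from 0.26 to 1.03.

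Which members are called depended on GATA-4 array 1. With all arrays, Vegfa was the single call among 14 probe sets. Without that array the 3 calls were Vegfa, Vegfb and Pgf, with differences of -0.33, -0.43 and 0.70. This is again to be set beside the whole array, where the share called was 15.3% without it. Leaving out any other array gave 0 or 1 call.

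**Figure D4:**
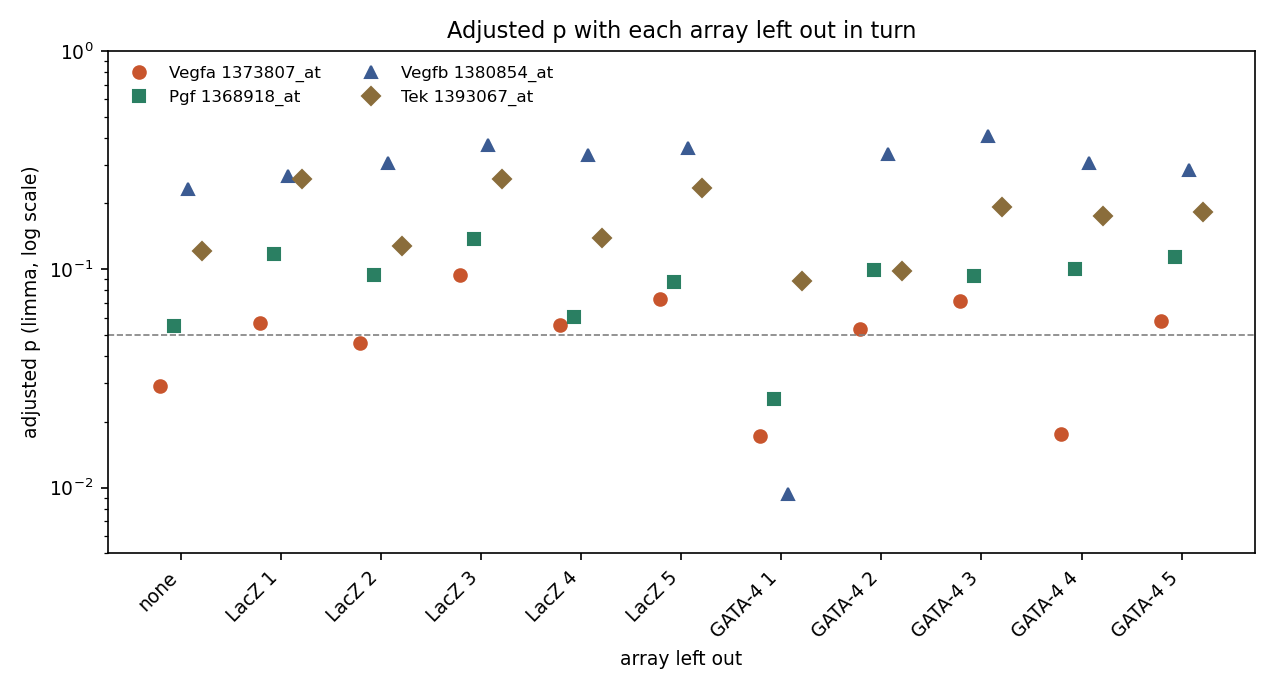
Limma adjusted p (y axis, log scale) of the brightest probe sets of Vegfa, Pgf, Vegfb and Tek with all arrays and with each array left out in turn (x axis), with a dashed line at 0.05. Without GATA-4 array 1 the points of Vegfa, Pgf and Vegfb lie under the line, at 0.0173, 0.0255 and 0.00933, and Tek lies above it in every fit.

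The genes whose values ran closest to Vegfa 1373807_at over the 10 arrays were Rnf166, Pdk1 and Klhl12. Likeness was the root mean square difference between log2 deviations from each gene's own mean, 0.082, 0.084 and 0.091 for these genes, beside a root mean square deviation of 0.22 for Vegfa itself. A closeness in the group difference is part of this measure, and these genes differed by -0.40, -0.36 and -0.46.

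The rest of the pathway was described from lists, each gene by its brightest probe set. Among all 10688 genes so tested, 3.71% rose and 2.66% fell with GATA-4, with a median difference of -0.02. Of 35 other VEGF and angiopoietin pathway genes tested, 2 rose and 0 fell, with a median of 0.18. These were Hspb1, a small heat shock protein phosphorylated downstream of Kdr (difference 0.28, limma adjusted p = 0.0240), and Shc1, an adaptor of many receptor kinases (0.34, limma adjusted p = 0.0265), and their calls were lost in 5 and 7 of the 10 fits that left out 1 array. By limma without GATA-4 array 1, 6 rose and 5 fell of 36, beside 9.96% and 8.86% of all genes. Those that rose were Dok2, Hspb1, Itgb3, Prkcb, Ptprj and Shc1. Those that fell were Akt1, Grb14, Ptpn11, Shb and Tie1, the partner receptor of Tek. The median was then 0.072, and GATA-4 array 1 had the highest log2 summed signal of this list, 15.06 beside 14.82 to 14.89 with LacZ.

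Of 20 genes that VEGF is known to induce in endothelium, 1 rose and 1 fell, and 12 differences were above 0. The log2 summed signal of this list, to which bright genes add most, was 13.15 to 13.19 with LacZ and 13.29 to 13.39 with GATA-4. These sums did not overlap. The mean log2 deviation of its genes, which weighs each gene alike, was -0.14 to 0.03 with LacZ and -0.05 to 0.09 with GATA-4. These means overlapped through GATA-4 array 1, at -0.05. Apln, the peptide ligand apelin, fell by 0.75 (limma adjusted p = 0.00844), and it passed the threshold in each of the 10 fits that left out 1 array. Plau, the urokinase plasminogen activator, rose by 0.87 (limma adjusted p = 0.0474), a call lost in 9 of those 10 fits. Macrophages also express Plau. With GATA-4 array 1 left out, 6 of the 20 rose in limma, Adamts1, Icam1, Plau, Rcan1, Sele and Vcam1, and Apln and its receptor Aplnr fell, with the median going from 0.095 to 0.061. Over all genes, 9.96% rose and 8.86% fell in that fit.

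Of 32 hypoxia and HIF genes tested, 3 rose and 2 fell, with a median of -0.01 and calls in both directions. Aldoc, a glycolytic aldolase, rose 4.52-fold (difference 2.17, limma adjusted p = 0.00177). Slc2a1, the glucose transporter GLUT1, rose by 0.56 (limma adjusted p = 0.0238), and Hmox1, haem oxygenase 1, rose by 0.79 (limma adjusted p = 0.0364). Egln3, a prolyl hydroxylase that marks HIF for breakdown and is itself a HIF target, fell by 0.33 (limma adjusted p = 0.0223). Pdk1, which limits pyruvate entry to the Krebs cycle and is also a HIF target, fell by 0.36 (limma adjusted p = 0.0437). The calls of Egln3, Slc2a1, Hmox1 and Pdk1 were lost in 4, 6, 8 and 8 of the 10 fits that left out 1 array, whereas that of Aldoc was kept in all. In limma without GATA-4 array 1, 7 rose, Aldoc, Eno1, Hif1a, Hmox1, Ndrg1, P4ha1 and Slc2a1, and 5 fell, Egln1, Egln3, Higd1a, Pdk1 and Vldlr, with the median again at -0.01. Those counts stand beside 9.96% and 8.86% of all genes.

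Markers of the cells that make or receive these signals were read beside the members. Of 22 endothelial markers, all above the filter, 2 rose and 0 fell, with 6 differences above 0 and a median of -0.15. Those that rose were Ly6c, which monocytes also carry (0.70, limma adjusted p = 0.0202) and Ecscr (0.41, limma adjusted p = 0.0310), calls lost in 3 and 7 of the 10 fits that left out 1 array. The log2 of the list's summed signal was 14.51 to 14.63 with LacZ and 14.40 to 14.68 with GATA-4, the highest being GATA-4 array 1. Without that array, Aqp1, Cldn5, Emcn, Gpihbp1 and Tie1 fell, 5 of 22 in limma, beside 8.86% of all genes. Tie1 is also counted in the pathway list, by the same probe set. The median was then -0.24, with Tek at -0.19 and Kdr at -0.07. The part of endothelial content in the Tek and Kdr values was not tested.

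Of 14 cardiomyocyte markers 0 rose and 2 fell, Casq2, the calcium store protein of the sarcoplasmic reticulum (-0.31, limma adjusted p = 0.00786), and Ttn, the sarcomere spring titin (-0.27, limma adjusted p = 0.00957). The median was -0.01. The log2 summed signal was 17.1781 to 17.2265 with LacZ and 17.1507 to 17.1759 with GATA-4, a small shift with no overlap. The labelled tissue thus carried strong heart muscle markers in both groups, and their part in the Vegfa value was not tested. None of the 12 pericyte and smooth muscle markers and none of the 12 fibroblast markers passed in limma, with medians of 0.01 and 0.05, and 1 and 5 of them had an unadjusted p under 0.05, beside 24.2% of all genes tested. Without GATA-4 array 1 the fibroblast genes Col1a1, Thy1 and Vim rose, 3 of 12, beside 9.96% of all genes. Of 7 lymphatic markers 1 rose, Pdpn (0.77, limma adjusted p = 0.0242), a call lost in 5 of the 10 fits that left out 1 array. Without GATA-4 array 1, Pdpn rose and Prox1, which sets lymphatic identity, fell. That was 1 of 7 in each direction, beside 9.96% and 8.86% of all genes.

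The macrophage and monocyte list held the most calls of the 10 lists. Of its 16 genes 9 rose and 0 fell, with a median of 0.51, led by Tyrobp (1.24, limma adjusted p = 0.000740) and Csf1r (0.54, limma adjusted p = 0.00819). Cd14 rose by 0.86 and Cd68 by 0.69, with limma adjusted p of 0.0136 and 0.0140. The calls of Tyrobp, Csf1r and Cd68 were kept in all 10 fits that left out 1 array. Those of Lyz2, C1qb, Mrc1, Laptm5, Fcer1g and Cd14 were lost in 8, 7, 6, 4, 4 and 1 of them. The log2 summed signal was 14.17 to 14.41 with LacZ and 14.64 to 14.93 with GATA-4, with no overlap. Of 7 neutrophil and platelet markers 3 rose, Lcn2 (1.32), Il1r2 (1.48) and Csf3r (0.95), with a median of 1.21. The calls of Il1r2 and Csf3r were lost in 7 and 8 of the 10 fits that left out 1 array, and that of Lcn2 in none. Among these 7 markers 6 rose in limma without GATA-4 array 1, as did 12 of the 16 macrophage and monocyte markers and 9.96% of all genes. Macrophages also express Flt1, Nrp1, Vegfa and Pgf, and the part of these cells in the member values was not tested.

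**Figure D5:**
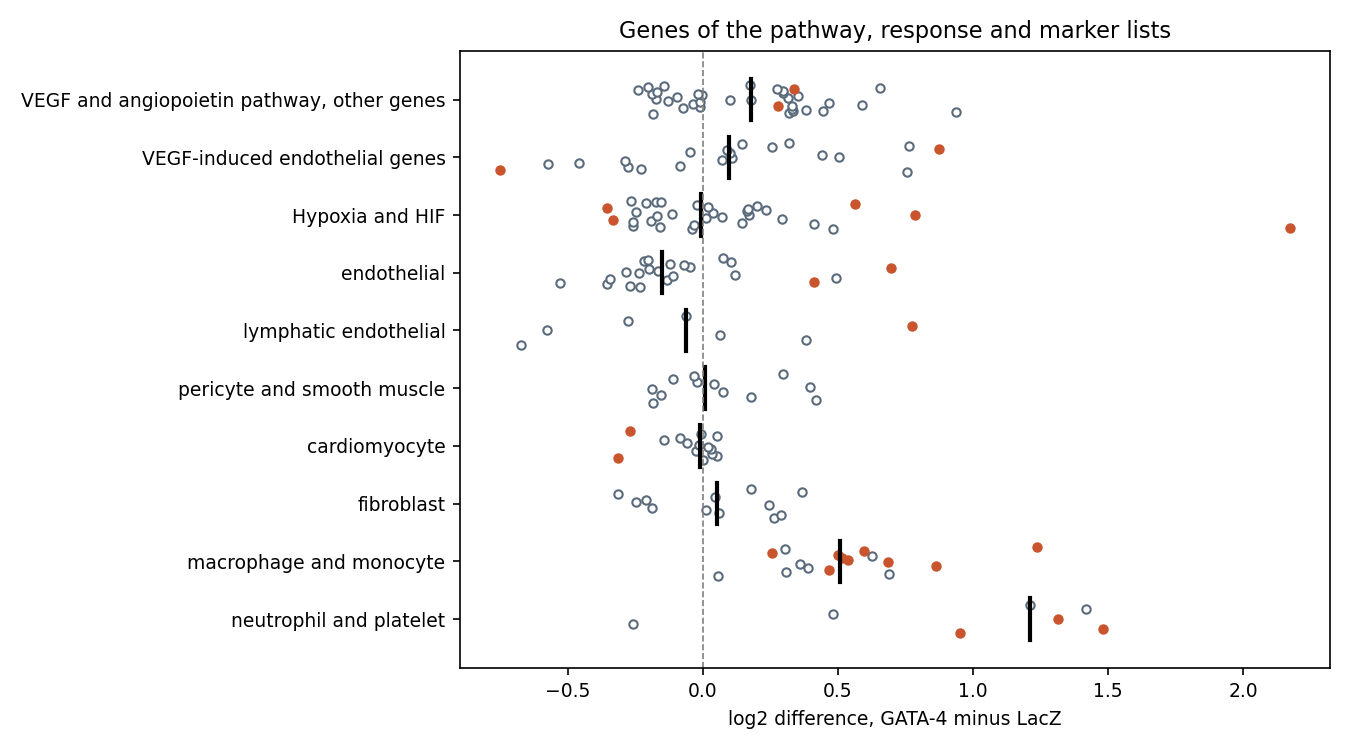
GATA-4 minus LacZ difference in log2 normalized signal (x axis) of each tested gene in the 10 lists, orange where the limma adjusted p is under 0.05, with a black bar at the list median. The macrophage and monocyte median is 0.51 and the endothelial median -0.15, beside -0.02 over all genes tested.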

How the data were processed

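Probe set intensities on a linear scale were deposited by the authors as 1 table of 10 arrays (Affymetrix Rat 230 2.0), and GCOS, the software of the array's maker, is the tool that the submitters' processing notes list. Neither the summary algorithm nor any scaling is stated in those notes. Groups follow the source labels, since the titles name GATA-4 on all arrays. Gene names came from the platform annotation in GEO, with 20826 naming 1 gene, 436 several and 9780 none, and 20758 symbols matched by gene ID to the RefSeq table of GRCr8.

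Values were taken to log2, quantile normalized over 31042 probe sets without the 57 controls, and floored at 0. The 18625 probe sets with a mean above the 40th percentile (5.17) were fitted with limma 3.58.1 in R 4.3.3 with an intensity trend and no covariate, and p-values were adjusted by Benjamini-Hochberg over all of them at a threshold of 0.05. Single measures were compared by exact two-sided permutation over 252 assignments of 5 and 5 arrays. The fit was tested on simulated data.

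The members and the 10 lists were chosen with earlier results of these data known. Named genes were all members, Gata4, up to 4 called genes of smallest p from each list, and the 3 genes most like each called member. Genes called without GATA-4 array 1 are named beyond that rule. Alternatives tried were no normalization, median centring, other floors, offsets and filters, no trend, a robust trend, array weights, averaged probe sets and arrays left out.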

Additional observations from a re-analysis of the deposited data

Results flagged for a closer look

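Each of the 32 groups of 5 arrays, 16 probe sets in 2 groups, was checked for 1 array far from the others by Dixon's criterion at 95%, and 2 stood apart, a number that chance alone can give. Vegfb on LacZ array 1 read 11.07, with the other LacZ arrays at 11.23 to 11.28. Kdr 1397868_at on LacZ array 5 read 0.17, with the other LacZ arrays at 3.38 to 3.94, on a probe set under the filter on low signal.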

How the results depend on the processing

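No paired analysis was possible because no replicate number in the labels is common to both groups. The cause of the shifts below was not tested. Of 988 probe sets called, 1 of them a member, and 26 called genes of the lists, the counts were 9, 0 and 1 with signals as deposited, 2890, 3 and 63 with array weights, and 2616, 3 and 60 with median centring and GATA-4 array 1 left out. Without the filter on low signal 619 probe sets and 0 members were called, with averaged probe sets 0 members, and without the intensity trend 539 probe sets and 14 list genes. Without GATA-4 arrays 4 and 5, whose sample numbers lie apart, 201 probe sets and 8 list genes were called. Median centring gave 723 probe sets, 44.5% of them higher with GATA-4 against 57.3% with quantile normalization, and 14 list genes. Leaving out 1 array gave 174 (without LacZ array 3) to 2849 probe sets (without GATA-4 array 1), 0 to 3 members and 8 to 62 list genes. Counts lower by more than 1.5 times also came without LacZ arrays 1, 4 and 5 (384, 391 and 323) and GATA-4 arrays 3, 4 and 5 (341, 558 and 539). Vegfa 1373807_at stayed below 0 in all 22 alternatives and lost its call in 11 of them, with the intensity trend left out among them (limma adjusted p = 0.0804). Pgf 1368918_at stayed above 0 in all 22 and was called in 4, again including the fit without the trend (limma adjusted p = 0.0321). The 22 include averaged probe sets, where the values, -0.15 for Vegfa and 0.46 for Pgf, are of the gene and not of the single probe set. Neither gene was called there.

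Differences that were not called changed sign as follows. Nrp1 1370570_at was -0.047 with signals as deposited, -0.050 with median centring, -0.067 with array weights, -0.017 without GATA-4 arrays 4 and 5, -0.20 with median centring and no GATA-4 array 1, and -0.14 to 0.14 with 1 array left out. Angpt2 was 0.031 with array weights, 0.0083 without GATA-4 arrays 4 and 5, 0.068 with median centring and no GATA-4 array 1, and -0.12 to 0.053 with 1 array left out. Angpt1 was -0.010 with the floor at the 20th percentile. Kdr 1367948_a_at was -0.13 to 0.0046 with 1 array left out, and its average with Kdr 1397868_at, the probe set under the filter, was 0.25. Kdr 1397868_at alone was -0.0087 without GATA-4 arrays 4 and 5 and -0.12 to 1.07 with 1 array left out. Vegfa 1370081_a_at was -0.0066 without GATA-4 arrays 4 and 5, -0.017 with median centring and no GATA-4 array 1, and -0.020 to 0.16 with 1 array left out. Flt1 1370492_a_at was -0.046 with median centring and no GATA-4 array 1 and -0.029 to 0.26 with 1 array left out. Flt1 1369087_at was -0.12 without GATA-4 arrays 4 and 5, -0.021 with median centring and no GATA-4 array 1, and -0.0073 to 0.40 with 1 array left out.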

Other observations

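GATA-4 arrays 2 and 3, the brightest of the 10 before normalization with trimmed means of 329 and 328, were the lowest arrays of their group on 6 of the 14 member probe sets tested, 42.9%, beside 16.6% of all probe sets tested. These were Vegfa 1370081_a_at, Vegfb, Flt1 1369087_at, Kdr 1367948_a_at and both probe sets of Nrp1. GATA-4 array 1, the dimmest, was the highest of its group on 5 of the 14, 35.7%, beside 35.2% of all. This order was looked for after the values had been seen, and the part of array brightness in it was not tested.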
